A study of Gallus gallus with 4 samples.

Results

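In feathers plucked from chicken embryos at 12 days of incubation, 194 of the 6208 kept cell barcodes carried RNA of at least 2 of the genes IL1RL1, GATA2 and HPGDS together with that of the epithelial genes GATA3 or KRT5. These 194 barcodes, called members here, made up 3.12% of the kept barcodes (95% exact Clopper-Pearson interval 2.71% to 3.59%) and were chosen from their measured counts. A member had at least 300 detected genes, at most 10% mitochondrial UMIs (unique molecular identifiers, each standing for 1 captured transcript), at least 5 UMIs summed over IL1RL1, GATA2 and HPGDS with at least 2 of these 3 genes detected, at least 1 UMI of GATA3 or KRT5, and at most 5 UMIs of the collagen genes COL1A1 and COL1A2. They were set against 2749 comparison barcodes of the same library, which had the 3-gene sum at 0, at least 3 UMIs of GATA3 and KRT5, and the same collagen limit. The whole series holds 67513 deposited barcodes.

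The study sequenced dorsal midline feathers of embryos of the white leghorn breed in 4 droplet libraries, with 1 library per group. Plucked feathers were sampled at 12 days (Hamburger and Hamilton stage 38) as whole cells released by Pronase, a protease mixture, and at 13 days (stage 39) and 14 days (stage 40) as nuclei. Feathers left in a piece of dorsal skin were sampled at 12 days, also as whole cells. All 4 groups came from unmodified embryos, and the number of embryos pooled in each library was not given in the sources used here. With 1 library per group no test between groups or between sets of barcodes was possible, so intervals below cover counting error only.

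IL1RL1, also called ST2, is the receptor for the alarm cytokine interleukin-33, and it signals with IL1RAP through MYD88 to NF-kB. GATA2 is a zinc-finger transcription factor of blood progenitors, mast cells and endothelium, and HPGDS makes prostaglandin D2 with glutathione as its cofactor. In mammals the 3 genes are best known together from mast cells, and IL1RL1 and HPGDS also from group 2 innate lymphoid cells. Keratinocytes of the embryonic feather express KRT5, GATA3 and TP63, and as the feather epithelium folds into barb ridges its cells pass from dividing progenitors to SHH-expressing marginal plate and to keratinising barbs.

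The plucked 12-day library held 69076945 UMIs over 10952 deposited barcodes, of which 4440 with enough genes exceeded the mitochondrial limit. Members were the deeper barcodes, with a median of 21186.5 UMIs and 4040.5 genes, against 10440 UMIs and 2942 genes in comparison barcodes. The requirement for 5 UMIs of 3 genes selects deep barcodes by construction. At an equal depth of 2000 UMIs the median number of genes was 969 in members and 999 in comparison barcodes. Of the plucked 12-day barcode sequences, 151 also occurred in another library, 2 of them in members. Scrublet, a doublet caller, marked 2 of the 194 members (1.03%) and 27 of the 2749 comparison barcodes (0.982%). Mitochondrial genes took a median of 6.06% of UMIs in members and 5.61% in comparison barcodes.

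The genes of the rule describe how the members were found and are no finding. All levels below are UMIs summed over the barcodes of a group and scaled to CPM (counts per 1000000 UMIs of the group). IL1RL1 was detected in 180 members at 276 CPM, GATA2 in 138 at 123 CPM and HPGDS in 137 at 325 CPM, and all 3 were at 0 in comparison barcodes because the rule set them so. The 3-gene sum ran from 5 to 63 UMIs per member with a median of 12. All 3 genes were seen in 67 members, IL1RL1 with GATA2 in 57, IL1RL1 with HPGDS in 56 and GATA2 with HPGDS in 14. A further 129 barcodes reached the sum of 5 through 1 gene alone, in 102 cases HPGDS, and were not members. None of the 196 barcodes that reached the sum with at least 2 genes lacked GATA3 and KRT5, and 2 of them had too much collagen RNA.

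CA6, a secreted carbonic anhydrase, is a marker of the label that the rule did not use. The label and its markers were chosen with earlier results of these data known, so the CA6 levels are a description. CA6 stood at 31.9 CPM in members (134 UMIs, exact Poisson interval 26.7 to 37.7 CPM) and at 3.44 CPM in comparison barcodes (104 UMIs, 2.81 to 4.17 CPM). The log2 ratio, with 10 CPM added to both levels, was 1.64 (1.37 to 1.90), and 1.46 against 194 comparison barcodes matched to the members in UMIs. A CA6 UMI was found in 82 members (42.3%) and in 3.06% of comparison barcodes. After thinning to 2000 UMIs these shares were 5.15% of members (2.50% to 9.28%) and 0.712% of 2668 comparison barcodes (0.429% to 1.11%). Collagen-rich barcodes, which should lack the gene and had a median depth of 5044 UMIs, showed CA6 in 0 of 431 (exact interval up to 0.852%). These barcodes were chosen to hold no GATA3 or KRT5 UMI, so they may understate free epithelial RNA. Among members, CA6 was seen in 38 of the 67 with all 3 rule genes and in 2 of the 14 that lacked IL1RL1.

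The epithelial part of the label was read from genes outside the rule. The rule itself asked for GATA3 or KRT5, and for more of them in comparison barcodes, so their levels are given as a description. KRT5, a basal keratin, was detected in 193 members at 579 CPM, against 553 CPM in comparison barcodes. In the depth-matched comparison barcodes KRT5 stood at 366.5 CPM, a log2 ratio of 0.65. GATA3 was detected in 186 members. Outside the rule, the epidermal regulator TP63 was found in 118 members, and EPCAM and the desmosomal plaque gene DSP had a UMI in 100% of members. The shallower comparison barcodes had EPCAM in 97.45% and DSP in 98.84%. By level DSP was lower in members, at 2162.5 CPM against 3579.4 CPM in comparison barcodes. COL17A1, of the same keratinocyte list, stood at 0.951 CPM in members and 47.5 CPM in comparison barcodes. CDH1, the epithelial cadherin, stood at 246 CPM in members and 225 CPM in comparison barcodes.

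Defining markers of the other cells known for IL1RL1 or GATA2 were at or near 0, while genes of these lists that are not restricted to those cells were detected at levels near those of comparison barcodes. Of 14 listed mast cell genes 6 were named in the files, KIT had no UMI in any member (a count of 0 allows up to 0.713 CPM, the level of 3 UMIs), and the list's summed 170 CPM in members and 148 CPM in comparison barcodes was almost all MITF, at 169 CPM in members and 145 CPM in comparison barcodes. PTPRC, the pan-leukocyte CD45 gene, was found in 1 member, and the 12 leukocyte markers found summed to 2.85 CPM in members and 7.11 CPM in comparison barcodes. Among lymphoid genes, 13 of 15 were seen in under 2% of members, and the list summed to 742 CPM in members and 684 CPM in comparison barcodes. Nearly all of that sum was ID2, at 612 CPM in members and 544 CPM in comparison barcodes, and RORA, at 126 CPM in members and 129 CPM in comparison barcodes, both transcription regulators of many tissues. CDH5 and KDR, which define endothelium, were at 0 in members, and the endothelial list summed to 39.5 CPM in members, 32.1 CPM of it PECAM1, against 73.6 CPM in comparison barcodes. Basophil and eosinophil markers summed to 0.475 CPM in members and 1.29 CPM in comparison barcodes, and fibroblast markers to 31.9 CPM in members and 150 CPM in comparison barcodes. Globin RNA made up 0.0964% of UMIs in members and 0.117% in comparison barcodes.

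Clustered without the rule's genes and CA6, most members still lay together. The kept barcodes fell into 25 Leiden clusters, and 123 members, 63.4% (56.2% to 70.2%), were in cluster 10, which was led by NFKBIZ, KITLG, SMTN, SCCPDH, AXL and POU2F3. Members made up 38.8% (33.4% to 44.4%) of the 317 barcodes of that cluster. A further 50 members (25.8%) were in cluster 0, led by the neuronal adhesion gene NRCAM and the semaphorin receptor NRP1, where they were 7.89% of 634 barcodes. The remaining 21 members were spread over clusters 15, 9, 1, 6, 13 and 19, with 8, 5, 4, 2, 1 and 1. The rule genes were not restricted to epithelium. HPGDS stood at 1326 CPM in cluster 23 (31 barcodes led by the pigment genes PMEL, MLANA and TYRP1), IL1RL1 at 251 CPM in cluster 24 (27 barcodes led by MYH11 and POSTN), and GATA2 at 66.0 CPM in cluster 22, led by the endothelial genes CDH5 and VWF. None of these 3 clusters held a member.

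**Figure D1:**
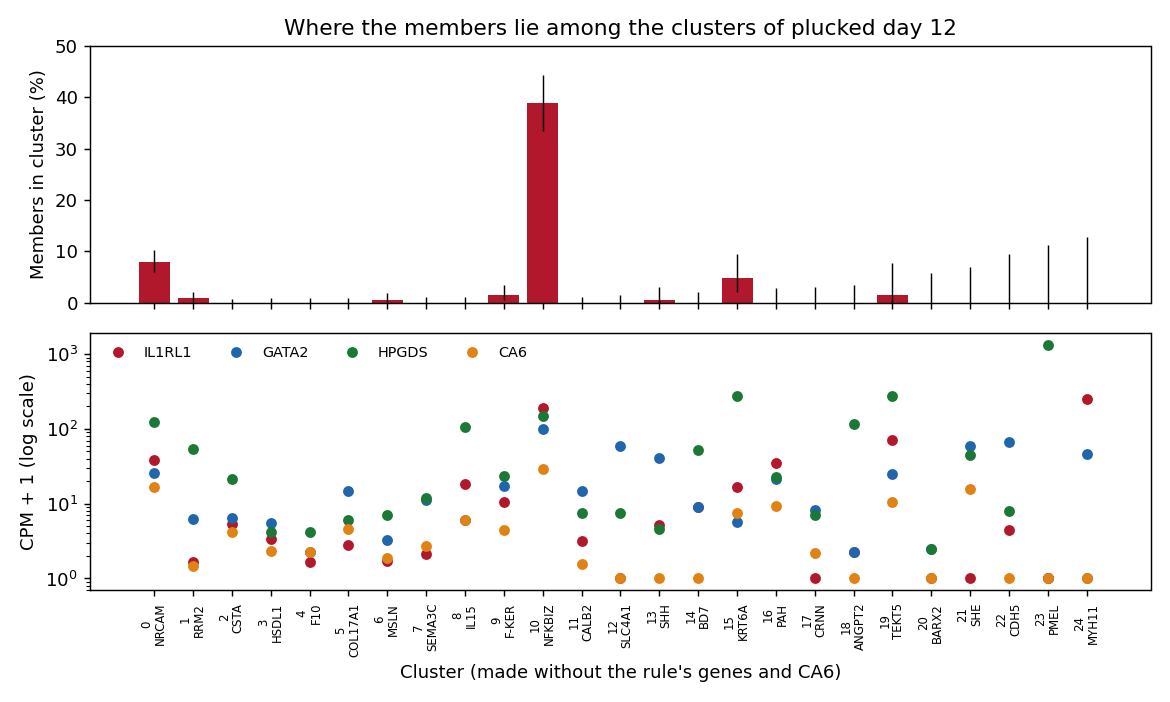
Upper panel, percent of each Leiden cluster's barcodes in plucked 12-day feathers that were members, with exact 95% intervals; lower panel, CPM plus 1 on a log scale of IL1RL1, GATA2, HPGDS and CA6 in each cluster, named by its leading gene. Cluster 10 held 38.8% members and cluster 0 held 7.89%, while HPGDS reached 1326 CPM in the pigment cluster 23, which held none.

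Across the transcriptome, 3257 genes outside the rule reached 50 CPM in at least 1 of the groups. Of these 80 (2.46%) were at least 2-fold higher in members and 233 (7.15%) at least 2-fold lower, with the median gene at a log2 ratio of -0.02. Against the depth-matched barcodes, 60 of 3229 genes (1.86%) were at least 2-fold higher and 248 (7.68%) lower. The split depended on the scaling: 25.6% of the genes past 2-fold were higher in members with total UMIs as the divisor and 38.0% (119 higher, 194 lower) with a trimmed-mean scaling, under which the median gene moved to 0.11. The members were selected from this same library, so these ratios are descriptions.

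The 15 genes with the highest ratio had log2 values of 1.44 to 2.19. CPZ, a secreted carboxypeptidase that binds Wnt proteins, stood at 72.0 CPM in members and 8.0 CPM in comparison barcodes, a log2 ratio of 2.19 (1.96 to 2.41) that was 1.39 against depth-matched barcodes. MAT1A, which makes S-adenosylmethionine, stood at 176 CPM in members and 31.6 CPM in comparison barcodes (log2 ratio 2.16, interval 1.99 to 2.33). It was detected in 85.6% of members and 18.2% of comparison barcodes. ABCC4, an exporter of cyclic nucleotides and prostaglandins, stood at 109 CPM in members and 18.5 CPM in comparison barcodes (2.06, interval 1.86 to 2.26), and its ratio was 2.08 with depth matched. STK10, a serine-threonine kinase, followed with 115 CPM in members and 22.7 CPM in comparison barcodes (1.93).

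NFKBIZ, the nuclear IkB-zeta protein that NF-kB signals induce, was detected in 98.5% of members and 51.5% of comparison barcodes. Its 10th percentile, median and 90th percentile over members were 396, 1055 and 1926 CPM, against 0, 57.3 and 965 CPM over comparison barcodes, so the median member lay above the 90th percentile of the comparison. Summed, NFKBIZ stood at 1122 CPM in members and 319 CPM in comparison barcodes (log2 ratio 1.78). POU2F3, a POU-domain factor of keratinocytes that in mouse is also required for tuft cells, had a median of 272 CPM over members and 0 over comparison barcodes, with 304 CPM in members and 104 CPM in comparison barcodes in the sums. POU2F3 was detected in 97.4% of members and 45.5% of comparison barcodes.

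Among the other high genes, SMTN, an actin-binding smoothelin, stood at 160 CPM in members and 40.6 CPM in comparison barcodes. MYO9A, an unconventional myosin, stood at 113 CPM in members and 31.3 CPM in comparison barcodes, and DOCK8, an activator of CDC42, at 71.8 CPM in members and 17.5 CPM in comparison barcodes. RAB27A, a GTPase of secretory vesicles and melanosomes, stood at 461 CPM in members and 139 CPM in comparison barcodes. LGALSL, LURAP1L, NPM3 and LBH completed the set at log2 ratios of 1.73, 1.57, 1.49 and 1.44, and LBH was at 0.67 against depth-matched barcodes.

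SERPINE2, the protease inhibitor nexin-1, was uneven among members. It was detected in 55.7% of members and 31.9% of comparison barcodes, with a median of 41.6 CPM and a 90th percentile of 753 CPM over members, against 0 and 238 CPM over comparison barcodes. In the sums it stood at 226 CPM in members and 69.8 CPM in comparison barcodes (log2 ratio 1.57).

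KITLG and TCF7, outside the naming rule, were picked after their values were seen. KITLG, the ligand of the KIT receptor of melanocytes and mast cells, stood at 436 CPM in members and 157 CPM in comparison barcodes, a log2 ratio of 1.42 that was 0.71 against depth-matched barcodes. TCF7, a transcription factor of the Wnt pathway, stood at 1172 CPM in members and 475 CPM in comparison barcodes (1.28, and 1.22 with depth matched).

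The 10 genes with the lowest ratio were led by EDQM3, a gene of the epidermal differentiation complex. EDQM3 stood at 60.9 CPM in members and 3145 CPM in comparison barcodes (log2 ratio -5.48, interval -5.64 to -5.31). Its 90th percentile was 87.1 CPM over members and 16790.5 CPM over comparison barcodes, whose median was 61.6 CPM, so comparison barcodes were widely spread. JAG2, a Notch ligand, stood at 8.56 CPM in members and 192 CPM in comparison barcodes. SHH, the hedgehog ligand of the marginal plate, stood at 9.51 CPM in members and 145 CPM in comparison barcodes. Matching depth brought several of these ratios closer to 0, with SHH at -1.79 in place of -2.99, JAG2 at -2.64 in place of -3.44 and EDQM3 at -4.26 in place of -5.48. Others moved further from 0, with LIMA1 at -3.56, VSNL1 at -3.06, KRT17 at -3.10 and GSN at -3.09 when depth was matched. KRT17 stood at 134 CPM in members and 1101 CPM in comparison barcodes (-2.94). The actin-severing gelsolin gene GSN stood at 43.0 CPM in members and 370 CPM in comparison barcodes (-2.84). LIMA1, NCAM1, the homeobox gene BARX2, VSNL1 and the kinesin gene KIF26A had log2 ratios of -3.13, -3.06, -3.04, -2.95 and -2.87, and NCAM1 was at -1.71 with depth matched.

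**Figure D2:**
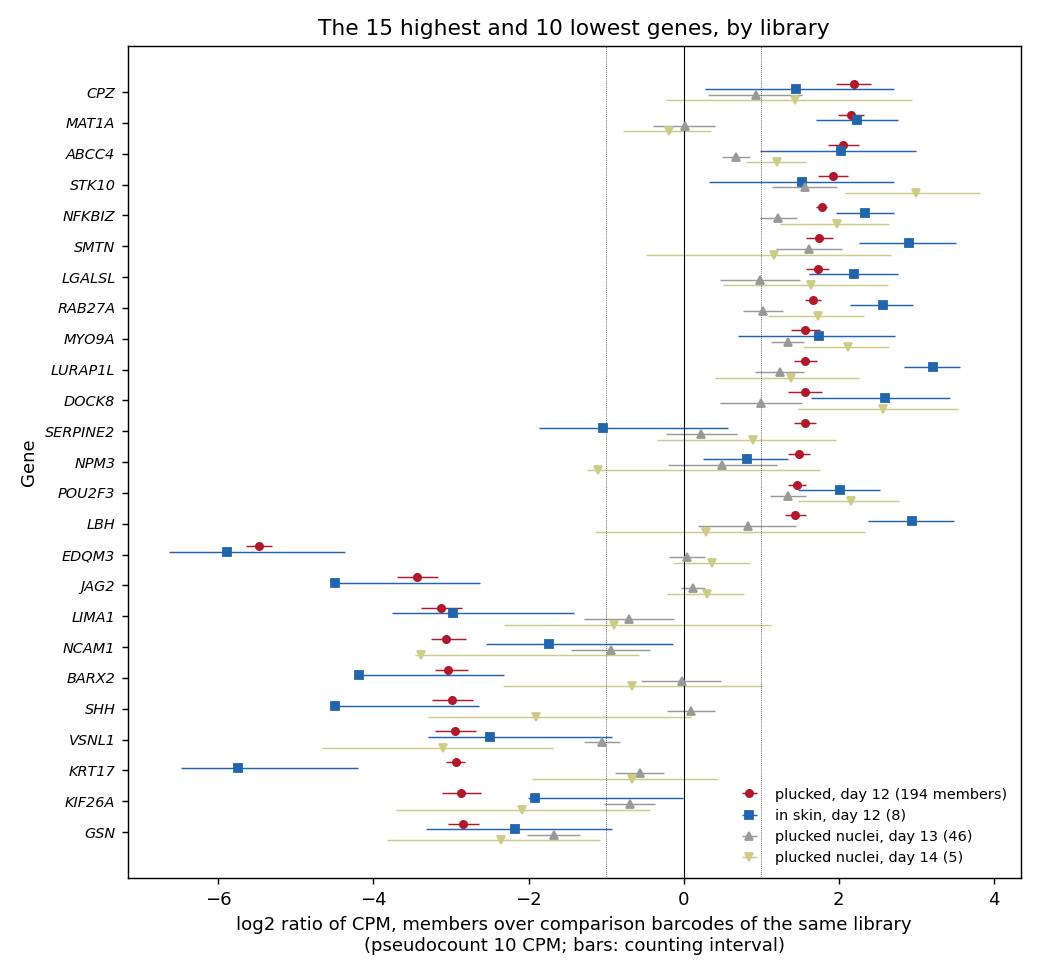
Log2 ratio of CPM (10 CPM added), members over comparison barcodes of the same library, for the 15 highest and 10 lowest genes of plucked 12-day feathers, in all 4 libraries; bars are counting intervals. In plucked 12-day feathers the values run from 1.44 to 2.19 and from -5.48 to -2.84 by selection, and feathers in skin have 14 of 15 and 10 of 10 genes on the same side of 0.

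At equal depth the same genes separated the groups in the share of barcodes with a UMI. After thinning to 2000 UMIs, NFKBIZ was detected in 82.0% of members (75.8% to 87.1%), 24.4% of comparison barcodes (22.8% to 26.1%) and 6.5% of collagen-rich barcodes. KITLG was detected in 55.7% of members, 16.9% of comparison barcodes and 1.62% of collagen-rich barcodes. POU2F3 was detected in 44.8% of members, 16.7% of comparison barcodes and 1.86% of collagen-rich barcodes. NFKBIZ and POU2F3 were named for their high ratio in these same barcodes, and KITLG was picked after its values were seen. Their higher detection in members is therefore a description. MAT1A was found in 23.7% of members and 5.92% of comparison barcodes. ABCC4 was found in 17.0% of members (12.0% to 23.1%), 3.71% of comparison barcodes (3.03% to 4.50%) and 2.78% of collagen-rich barcodes (1.45% to 4.81%). The intervals of comparison and collagen-rich barcodes thus overlapped. KRT14, the keratin partner of KRT5, was found in 26.3% of members and 74.4% of comparison barcodes, and JAG2 in 0.515% of members and 21.3% of comparison barcodes.

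**Figure D3:**
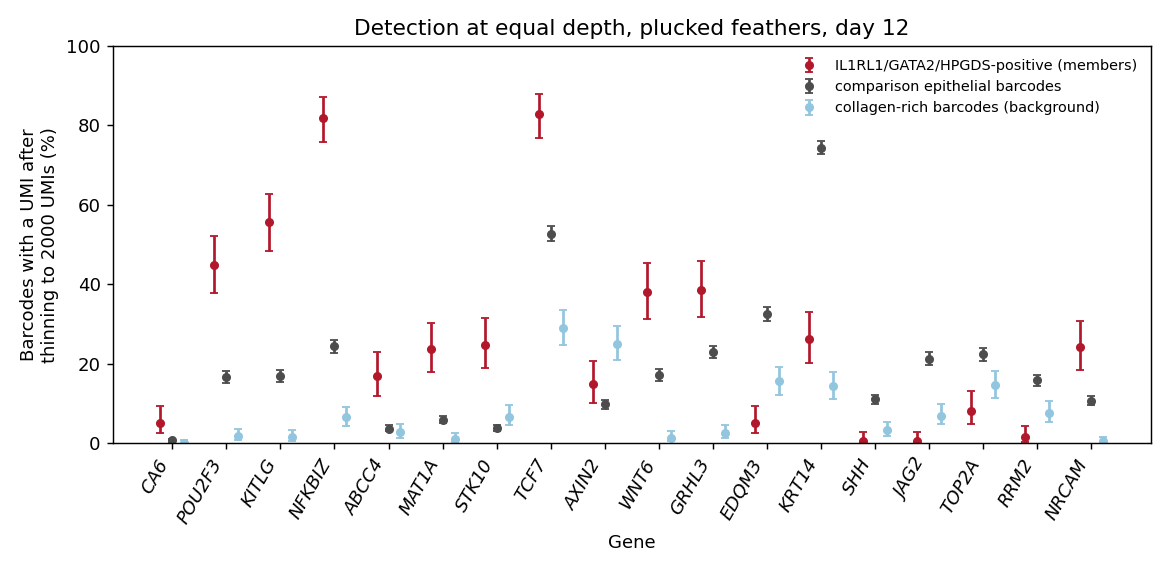
Percent of barcodes with at least 1 UMI of each gene after thinning every barcode to 2000 UMIs, in members (red), comparison barcodes (grey) and collagen-rich barcodes (light blue). Collagen-rich barcodes measure free RNA only for genes that they do not express themselves, and bars are exact 95% intervals. They were chosen to hold no GATA3 or KRT5 UMI, so they may understate free epithelial RNA. NFKBIZ reached 82.0% of members against 24.4% of comparison barcodes, while KRT14 was found in 26.3% of members against 74.4% of comparison barcodes.

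The genes of each list were counted at 50 CPM or more and outside the rule. All list counts are read against the 2.46% and 7.15% of all tested genes given above. Of 8 keratinocyte markers none was 2-fold higher and 3 were 2-fold lower in members, with a list median of -0.69. KRT14 stood at 223 CPM in members and 1243 CPM in comparison barcodes, EPCAM at 788 CPM in members and 2133 CPM in comparison barcodes, and the tight-junction gene CLDN1 at 205 CPM in members and 689 CPM in comparison barcodes. TP63 stood at 82.5 CPM in members and 135 CPM in comparison barcodes.

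Among 11 epidermal transcription factors, GRHL3 alone passed 2-fold. GRHL3, a grainyhead factor of barrier formation, stood at 319 CPM in members and 144 CPM in comparison barcodes (log2 ratio 1.10, interval 0.98 to 1.21, and 1.00 with depth matched). The other 10 lay between -0.67 (ZNF750) and 0.35 (DLX3), with MSX2 at 464 CPM in members and 438 CPM in comparison barcodes.

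Barrier and late differentiation genes were lower in members. Of 9 measured genes 6 were 2-fold lower and none 2-fold higher, with a median of -1.23. The lipid transporter ABCA12 stood at 212 CPM in members and 585 CPM in comparison barcodes, the protease inhibitor SPINK5 at 2.38 CPM in members and 100.4 CPM in comparison barcodes, and the cystatin CSTA at 57.8 CPM in members and 204 CPM in comparison barcodes. SCEL and the envelope gene PPL were closer, with SCEL at 313 CPM in members and 367 CPM in comparison barcodes and PPL at 579 CPM in members and 659 CPM in comparison barcodes. The 3 basal adhesion genes measured were also lower, with the hemidesmosome gene DST at 14.0 CPM in members and 72.1 CPM in comparison barcodes.

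Cell cycle genes were lower as a group. Of 9 measured genes 8 were at least 2-fold lower in members and the median was -2.19. TOP2A, which untangles replicated DNA, stood at 45.4 CPM in members and 326 CPM in comparison barcodes, and RRM2, which supplies deoxynucleotides, at 13.3 CPM in members and 150 CPM in comparison barcodes. The exception to 2-fold was BIRC5, at 49.4 CPM in members and 95.9 CPM in comparison barcodes. With depth matched, the 9 genes had log2 ratios of -2.42 to -0.46. At 2000 UMIs per barcode TOP2A was found in 8.25% of members, 22.4% of comparison barcodes and 14.6% of collagen-rich barcodes. TOP2A peaked in clusters 1 and 5, at 1350 and 928 CPM, which held 342 and 328 of the comparison barcodes. It stood between 21.8 and 30.7 CPM in clusters 3, 6, 7, 9 and 10, below the members. Clusters 0 and 15 stood at 45.3 and 42.55 CPM, and clusters 13 and 20 at 74.15 and 75.3 CPM. These levels are of whole clusters, members included.

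Feather signalling genes lay on both sides of 0. Of 10 measured genes none was 2-fold higher, and SHH, JAG2 and WNT5A were 2-fold lower in members, WNT5A with 25.4 CPM in members and 108 CPM in comparison barcodes. The Wnt ligand gene WNT6 stood at 201 CPM in members and 101 CPM in comparison barcodes (log2 ratio 0.92, and 1.36 with depth matched). AXIN2, a feedback target of Wnt signals, stood at 106 CPM in members and 55.3 CPM in comparison barcodes (0.83, and 0.94 with depth matched). After thinning, WNT6 was found in 38.1% of members, 17.1% of comparison barcodes and 1.39% of collagen-rich barcodes. AXIN2 was found in 15.0% of members (10.25% to 20.76%) and 9.78% of comparison barcodes (8.68% to 10.97%). These intervals overlapped, so no difference in detection is read from AXIN2. Collagen-rich barcodes had it in 25.1%, above both groups, so they give no background level for this gene.

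Of 20 interleukin-1 family receptor and signalling genes found, 6 reached 50 CPM. None of these 6 was 2-fold higher in members and 2 were 2-fold lower. With so few genes, the lack of a higher one cannot be set apart from the 2.46% of all tested genes. The co-receptor IL1RAP stood at 56.8 CPM in both members and comparison barcodes (log2 ratio 0.00, interval -0.22 to 0.22). NFKBIA, which holds NF-kB in the cytoplasm, stood at 65.1 CPM in members and 211 CPM in comparison barcodes, and NFKB1 at 15.9 CPM in members and 53.4 CPM in comparison barcodes. With depth matched the log2 ratio was -1.11 in place of -1.56 for NFKBIA and -0.71 in place of -1.29 for NFKB1. TOLLIP, an adaptor that restrains interleukin-1 signals, stood at 51.8 CPM in members and 28.8 CPM in comparison barcodes. Below the 50 CPM limit, IL18R1 stood at 34.2 CPM in members and 16.2 CPM in comparison barcodes, and MYD88 at 10.7 CPM in members and 15.1 CPM in comparison barcodes. IL1R1 stood at 22.6 CPM in members and 9.88 CPM in comparison barcodes, and SIGIRR at 13.8 CPM in members and 4.89 CPM in comparison barcodes. TRAF3 and TRAF6 were lower, at 8.79 and 8.08 CPM in members and 16.2 and 15.5 CPM in comparison barcodes.

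Of the prostaglandin genes around HPGDS, 3 of 16 found reached 50 CPM. PTGS2, the inducible cyclooxygenase, stood at 17.4 CPM in members and 69.0 CPM in comparison barcodes (log2 ratio -1.53, and -0.68 with depth matched). PTGES3, a co-chaperone that also has prostaglandin E synthase activity, stood at 191 CPM in members and 143 CPM in comparison barcodes, and ABCC4 was described above. PTGS1, the constitutive cyclooxygenase, had 3.09 CPM in members and 2.61 CPM in comparison barcodes. HPGD, which degrades prostaglandins, had 0 UMIs in members (up to 0.713 CPM) and 2.78 CPM in comparison barcodes. Of the 6 glutathione genes measured, MGST3 was 2-fold lower, at 36.6 CPM in members and 93.2 CPM in comparison barcodes, and the list median was -0.15. With depth matched the log2 ratio of MGST3 was -0.50 in place of -1.15, short of 2-fold. Of the GATA partners, LMO4 stood at 19 CPM in members and 125 CPM in comparison barcodes and RUNX3 at 41.6 CPM in members and 188 CPM in comparison barcodes, both 2-fold lower.

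Tuft cells, the chemosensory epithelial cells that in mouse express POU2F3, TRPM5 and the prostaglandin D2 machinery, were checked with 12 found markers. POU2F3 was the one marker at 50 CPM. TRPM5, a taste-transduction channel, was found in 24.2% of members at 13.6 CPM and in 1.20% of comparison barcodes at 1.32 CPM. At 2000 UMIs per barcode it was found in 1 of 194 members (0.515%, interval 0.0131% to 2.84%). Among comparison barcodes it was then found in 4 of 2668 (0.150%, 0.0409% to 0.383%). So few barcodes kept a UMI that the thinning could not resolve a difference in detection. In the depth-matched comparison barcodes TRPM5 stood at 2.98 CPM, a log2 ratio of 0.86, against 1.06 with all comparison barcodes. The other defining markers were absent or nearly so, since 8 of the 12, among them GFI1B, CHAT, ALOX5AP and GNAT3 at 0 and DCLK1 at 0.475 CPM, were seen in under 2% of members. Among carbonic anhydrases, CA2 stood at 230 CPM in members and 201 CPM in comparison barcodes, and CA13, below the limit, at 31.1 CPM in members and 2.58 CPM in comparison barcodes. The ionocyte list summed to 246 CPM in members and 213 CPM in comparison barcodes, nearly all of it CA2. TUBB3, a neuronal tubulin, stood at 911 CPM in members and 403 CPM in comparison barcodes (1.16, and 0.53 with depth matched), while 7 of the 9 nerve and Schwann cell markers were seen in under 2% of members.

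**Figure D4:**
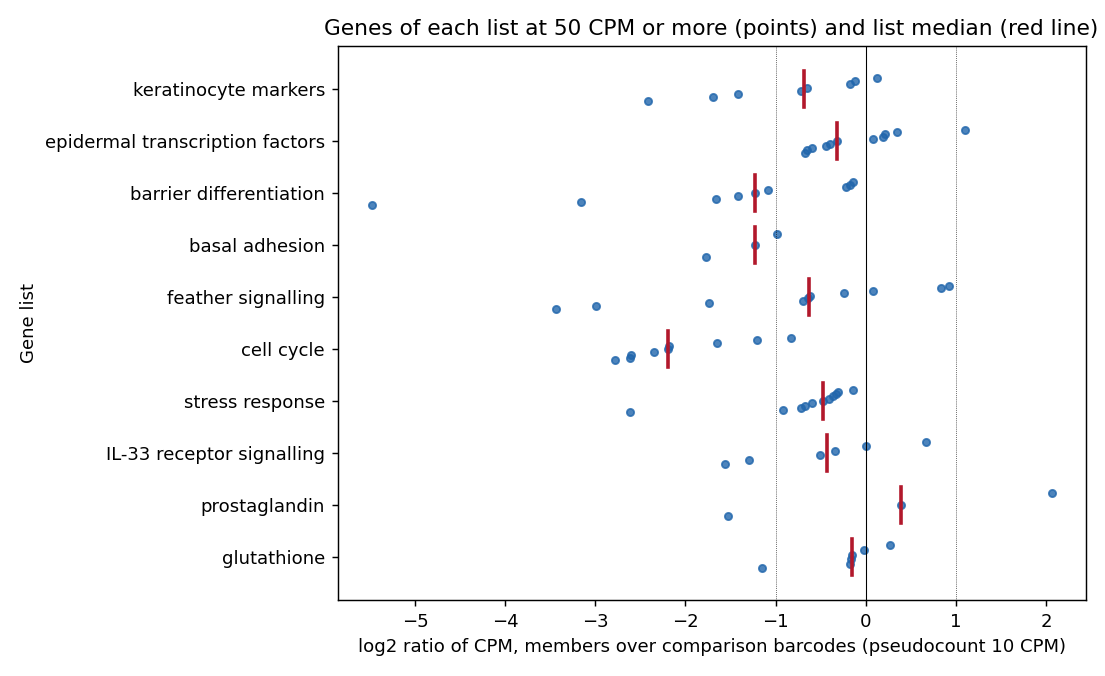
Log2 ratio of CPM (10 CPM added), members over comparison barcodes of plucked 12-day feathers, for each gene at 50 CPM or more in 10 gene lists (points) with the list median (red line). Cell cycle genes have the lowest median shown, -2.19, and barrier genes reach -5.48 (EDQM3), while GRHL3 at 1.10 and ABCC4 at 2.06 lie above 1.

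The ratios were also read along the 3-gene sum itself. The bin at 0 holds the comparison barcodes, and the other bins hold all kept barcodes with at least 1 UMI of GATA3 or KRT5 and at most 5 collagen UMIs. From a sum of 0 through 1 to 2, 3 to 4, 5 to 9, 10 to 19 and 20 or more UMIs, CA6 stood at 3.44, 7.51, 10.0, 16.0, 30.3 and 35.1 CPM. ABCC4 followed with 18.5, 29.8, 47.8, 58.3, 96.4 and 170 CPM, and EDQM3 ran the other way with 3145, 1608, 651, 101, 49.2 and 21.2 CPM. ABCC4 and EDQM3 were named by their ratio between members and the bin at 0, which set the direction of these runs. From 10 to 19 UMIs to the highest bin, MAT1A rose from 165 to 248 CPM and POU2F3 from 282 to 290 CPM. STK10 fell from 116 to 111, NFKBIZ from 1065 to 1031, KITLG from 419 to 392.5 and SMTN from 152 to 137 CPM. KRT5 stayed between 553 and 703 CPM over the 6 bins. KRT5 is a gene of the rule, which asked for more GATA3 and KRT5 in the bin at 0, so its run is a description. Median depth also climbed along the bins, to 23571.5 UMIs in the highest, and its part in these levels was not tested. At the edge of the rule, the 31 members with 5 or 6 UMIs had 22.2 CPM of CA6 and 311 CPM of POU2F3. The 51 barcodes just outside, with 3 or 4 UMIs over at least 2 genes, had 17.7 CPM of CA6 and 271 CPM of POU2F3. The 112 epithelial barcodes outside because 1 gene gave their 5 or more UMIs had 10.1 CPM of CA6, 195 CPM of POU2F3 and 305 CPM of TOP2A.

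**Figure D5:**
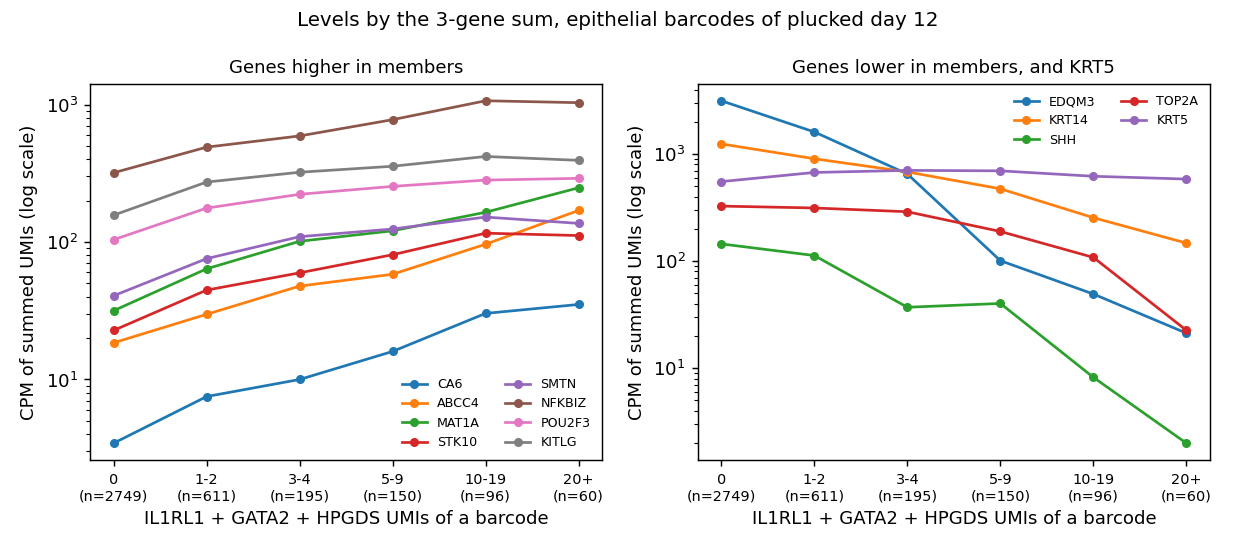
CPM of summed UMIs on a log scale against the IL1RL1, GATA2 and HPGDS sum of a barcode, in epithelial barcodes of plucked 12-day feathers; left, genes higher in members, and right, genes lower in members with KRT5. CA6 runs 3.44 to 35.1 CPM and EDQM3 3145 to 21.2 CPM from the lowest to the highest bin. KRT5, a gene of the rule, lies between 553 and 703 CPM.

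Set against the 11 epithelial clusters with their members taken out, members stood above all 11 for CPZ, MAT1A, ABCC4, STK10, LGALSL, RAB27A, NPM3, POU2F3 and CA6. For MAT1A this depended on the depth limit for clusters: cluster 19, at a median of 2352 UMIs below that limit, had 198 CPM of MAT1A, above the 176 CPM of members, and NPM3 was among the genes that led it. Apart from CA6, the genes above all 11 were named for their ratio over comparison barcodes, many of which lie in these clusters. Their place is therefore a description. The margin was narrow for POU2F3, with 304 CPM in members and 298 CPM in cluster 9. It was also small for MAT1A (176 and 158 CPM in cluster 13), STK10 (115 and 101 CPM in cluster 9) and NPM3 (209 and 184.5 CPM in cluster 20). RAB27A had a wider margin, with 461 CPM in members and 329 CPM in cluster 15. SERPINE2 reached 588 CPM in cluster 15, led by KRT6A, and NFKBIZ 1346 CPM in cluster 9, led by the feather keratin gene F-KER, both above the members. LBH reached 464.5 CPM in cluster 9, against 251 CPM in members. In the barcodes of cluster 10 that were not members, SMTN stood at 210 CPM, MYO9A at 128 CPM, LURAP1L at 219 CPM and DOCK8 at 79.5 CPM. These levels also lay above the members, which had 160, 113, 206 and 71.8 CPM. The low genes had their peaks elsewhere: EDQM3 stood at 18378 CPM in cluster 3, SHH at 1442 CPM and JAG2 at 1183 CPM in cluster 13, and KRT17 at 2435 CPM in cluster 6. Of the 11 clusters, 5 lay below the members for SHH, 4 for GSN, 3 for LIMA1 and 2 for KRT17. For each of the other low genes at most 1 cluster did so.

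Within cluster 10, the 123 members could be set beside 105 barcodes of the same cluster whose 3-gene sum was 0. NFKBIZ was near equal, at 1228 CPM in members and 1287 CPM in the others, and KITLG stood at 522 CPM in members and 584 CPM in the others. CA6 stood at 32.1 CPM in these members and 21.35 CPM in the others, closer than the 3.44 CPM of all comparison barcodes. POU2F3 stood at 336.5 CPM in members and 261.9 CPM in the others. Of 3082 genes, 30 (0.973%) were 2-fold higher in members and 26 (0.844%) lower. Among the higher genes, SERPINE2 stood at 205 CPM in members and 26.3 CPM in the others (log2 ratio 2.57, interval 2.08 to 3.06). ABCC4 stood at 99.2 CPM in members and 11.5 CPM in the others (2.34), and MAT1A at 185 CPM in members and 35.3 CPM in the others (2.11). NPM3 was also higher, at 233 CPM in members and 65.7 CPM in the others (1.68). KRT17 stood at 106 CPM in members and 639 CPM in the others (-2.49), and KRT14 at 141 CPM in members and 603 CPM in the others (-2.03). Median depth was 21875 UMIs in these members and 11076 in the others, and its part was not tested.

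Members of cluster 10 and cluster 0 were also set side by side. Of 3132 genes, 87 (2.78%) were 2-fold higher in the 123 members of cluster 10 and 49 (1.56%) lower than in the 50 members of cluster 0; the clustering used these genes, so the counts describe it. SCEL, a cornified envelope precursor, stood at 392 CPM in cluster 10 members and 13.0 CPM in cluster 0 members (log2 ratio 4.13). CPM, which encodes a membrane carboxypeptidase, had a level of 513 in cluster 10 members and 75.6 in cluster 0 members on the same scale. TP63 stood at 44.2 CPM in cluster 10 members and 195 CPM in cluster 0 members, the scaffold gene AKAP12 at 50 CPM in cluster 10 members and 426 CPM in cluster 0 members. Of the rule genes, IL1RL1 stood at 322 CPM in cluster 10 members and 216 CPM in cluster 0 members. HPGDS stood at 279 CPM in cluster 10 members and 343 CPM in cluster 0 members. The rule chose members of both clusters by these genes, so their levels are no finding. CA6 stood at 32.1 CPM in cluster 10 members and 39.9 CPM in cluster 0 members.

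The 137 members with an HPGDS UMI and the 57 without differed in a set of genes that the rule did not use. Of 3049 genes 45 (1.48%) were 2-fold higher with HPGDS and 9 (0.295%) lower. SERPINE2 stood at 305 CPM with HPGDS and 32.2 CPM without (log2 ratio 2.90, interval 2.45 to 3.35). TRPS1, a GATA-type repressor, stood at 64.4 CPM with HPGDS and 3.30 CPM without, and F3, the tissue factor that starts coagulation, at 132 CPM with HPGDS and 20.6 CPM without. ABCC4 stood at 137 CPM with HPGDS and 38.8 CPM without. On the other side LDHA, lactate dehydrogenase A, stood at 205 CPM with HPGDS and 660 CPM without, NFKBIZ at 1000.4 CPM with HPGDS and 1422 CPM without, and GATA2 at 81.5 CPM with HPGDS and 225 CPM without, the last partly fixed by the demand for 2 of 3 genes. A split into 82 members with CA6 and 112 without gave fewer genes. Of 2971 genes, 1 (0.0337%) was 2-fold higher with CA6 and 6 (0.202%) lower. CA6 itself stood at 69.0 CPM with it and 0 CPM without, a difference past 2-fold that the split fixed. The highest of the other named genes, SYP, had a log2 ratio of 0.66. The count of higher genes is therefore no finding. CA6 had 134 UMIs in all members, against 1366 for HPGDS, so CA6 may have been missed in members counted as without it. Median depth was 23257 UMIs with CA6 and 18584.5 without, and its part was not tested. Globin took 0.189% of UMIs with CA6 and 0.0170% without, where 2 members with CA6 and 1 without had over 1% globin.

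The same rule found few members elsewhere. Feathers in skin at 12 days, also whole cells, held 8 members of 5411 kept barcodes (0.148%, interval 0.0639% to 0.291%), against 3.12% in plucked feathers. Relative to members plus comparison barcodes the share was 6.59% (5.72% to 7.55%) in plucked feathers and 0.556% (0.240% to 1.09%) in skin. The nuclei held 46 of 19457 (0.236%) at 13 days and 5 of 19435 (0.0257%) at 14 days, at median depths of 2299 and 2150 UMIs per kept barcode, against 8537 in plucked 12-day cells and 6797 in skin. A rule that asks for 5 UMIs admits fewer barcodes at lower depth, and age, the change to nuclei and the library cannot be told apart. Of the 46 members at 13 days, 15 had a UMI of PTPRC or CDH5, IL1RL1 was seen in 17, and KRT5 was seen in 33.

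Levels in these other libraries were not used to choose the genes. Members were again deeper than comparison barcodes. Their median UMIs were 17740 and 12698 in skin, 10629.5 and 3096 at 13 days, and 6834 and 3408 at 14 days. The ratios there were not matched in depth, and the part of depth was not tested. The share of all genes on each side of 0 was not counted, so the same-side counts are descriptions. In skin, 14 of the 15 high genes were on the same side of 0 and 13 passed 2-fold, beside 9.98% of all genes, with a median log2 ratio of 2.20. All 10 low genes passed 2-fold, beside 13% of all genes, and JAG2, SHH, BARX2 and KIF26A had no UMI in the 8 skin members, so their ratios rest on the pseudocount. POU2F3 stood at 267 CPM in skin members and 58.1 CPM in skin comparison barcodes, and EDQM3 at 6.84 CPM in members (1 UMI) and 990.2 CPM in comparison barcodes. CA6 stood at 41.0 CPM in skin members (6 UMIs) and 1.98 CPM in skin comparison barcodes (log2 ratio 2.09, interval 0.98 to 3.12).

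In 13-day nuclei 15 of 15 high genes were on the same side of 0 and 8 passed 2-fold, beside 3.98% of all genes, with SMTN at 1.62 (124 CPM in members, 33.4 CPM in comparison nuclei) and POU2F3 at 1.35. Of the low genes 7 of 10 were on the same side and 2 passed 2-fold, GSN and VSNL1, beside 2.19%. EDQM3 did not differ there beyond counting error, with 349 CPM in members and 339 CPM in comparison nuclei, nor did SHH, with 201 CPM in members and 187 CPM in comparison nuclei. In 14-day nuclei, with 5 members, 13 of 15 high genes kept their side and 11 passed 2-fold, beside 14.9% of all genes, and 8 and 5 of the 10 low genes did so, beside 15.8%. MAT1A was high among members of both 12-day libraries, but stood at 108 CPM in members and 106 CPM in comparison nuclei at 13 days and at 463 CPM in members and 528 CPM in comparison nuclei at 14 days.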

How the data were processed

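The deposited values were raw UMI counts per gene and barcode in 4 libraries (16878 genes, of which 4436 had no symbol; the lowest deposited barcode had 500 UMIs). Per the file headers, the authors ran Cell Ranger, as version 3.1.0 on both libraries of 12-day cells and 7.0.0 on nuclei, to obtain the counts; the submitters' processing notes name Cell Ranger 7.0.0 and the chicken build GRCg6a. Other deposited tables give feature names and barcodes.

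Counts were summed over the barcodes of a group and scaled to CPM over total UMIs. Log2 ratios used a pseudocount of 10 CPM, which understates the change of low genes. Genes at 50 CPM in either group were compared. With 1 library per group no test was made. Intervals are 95% exact Poisson (sums) or Clopper-Pearson (shares) and cover counting error only. Ratio intervals combine the outer ends. Named genes were the 15 highest and 10 lowest with a symbol and a UMI in at least 10% of the higher group, and genes of fixed lists. The members and lists were chosen with earlier results of these data known.

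Clusters used scanpy 1.11.5 and leidenalg 0.10.2 (2000 variable genes, 30 principal components, 15 neighbours, resolution 1) without the rule's genes and CA6. An epithelial cluster had GATA3 or KRT5 in at least 50% of its barcodes and a median depth of at least the library's median divided by 3. Scrublet marked 136 of 6208 barcodes (2.19%) at its automatic threshold, and these were kept. Collagen-rich barcodes were kept barcodes with at least 20 UMIs of COL1A1 and COL1A2 and no UMI of GATA3 or KRT5. The ratio step was tested on simulated counts. Alternatives covered the pseudocount, scaling, gene minimum, each limit of the rule, doublets, depth and clustering.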

Additional observations from a re-analysis of the deposited data

Results flagged for a closer look

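Among the 15 high genes, SERPINE2 went the other way in feathers in skin, with a log2 ratio of -1.04 (interval -1.86 to 0.57; 1 UMI in 8 members), against 1.57 in plucked 12-day feathers. NPM3 went the other way in 14-day nuclei, with a log2 ratio of -1.11 (interval -1.25 to 1.76; 0 UMIs in 5 members), against 1.49 in plucked 12-day feathers. Neither difference between libraries was tested, and both intervals include 0.

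A signal also lay in barcodes that the comparisons leave out. Of the 4440 plucked 12-day barcodes over the mitochondrial limit, 32 passed the rest of the rule, with a median of 12.9% mitochondrial UMIs and 10496.5 UMIs. They had 46.9 CPM of CA6, against 31.9 CPM in the 194 members, and 74.4 CPM of STK10, against 115 CPM in members. ABCC4 stood at 127 CPM, NFKBIZ at 1081 CPM, POU2F3 at 262 CPM, EDQM3 at 66.2 CPM and KRT14 at 193 CPM.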

How the results depend on the processing

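Over 16 alternatives, the 25 named genes gave 400 log2 ratios, of which 259 stayed within the counting interval of the reported value, 138 moved beyond it with the same sign and 3 changed sign. Those were SERPINE2 in skin (-1.04) and, when comparison barcodes with a UMI of EDQM3, SHH or TOP2A were left out (chosen after seeing the data), EDQM3 (2.82) and SHH (0.96), by construction. That last setting left 36 genes 2-fold higher and 144 lower. In skin the counts were 296 higher and 387 lower, with 8 members. Without a minimum level 536 genes were lower. Members numbered 122 at a 3-gene sum of at least 10 and 52 at up to 5% mitochondrial UMIs. The CA6 log2 ratio was 2.89 with a pseudocount of 1 CPM, 1.37 at up to 5% mitochondrial UMIs and 2.09 in skin. The share of members in their leading cluster was 59.3% to 63.4% over 4 other clusterings. Depth matching, also chosen after seeing the data, moved 20 of the 25 ratios beyond their interval, all with the same sign.

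No paired analysis was possible because each group has 1 library. There is no replicate error for any value, so the spread between embryos is unknown. Genes under about 10 CPM rest on few UMIs in members, and the members of the other libraries (8, 46 and 5) limit what can be read there.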

Other observations

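Genes without a symbol were outside the naming rule. Of 256 that were measured, 8 were 2-fold higher and 23 lower in members, beside 2.46% and 7.15% of all 3257 tested genes. These counts are not read as a result about genes without a symbol. ENSGALG00000044875 stood at 795 CPM in members and 255 CPM in comparison barcodes, and ENSGALG00000011687 at 93.2 CPM in members and 2788 CPM in comparison barcodes (log2 ratio -4.76).

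Immediate early and heat-shock genes, which respond to dissociation, were nowhere 2-fold higher in members. Of 11 measured 1 was 2-fold lower, and the median was -0.47. FOS stood at 602 CPM in members and 962 CPM in comparison barcodes, and ATF3 at 15.2 CPM in members and 144 CPM in comparison barcodes.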
